A study of Mus musculus with 12 samples.

Results

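Broad Ino80 domains are the widest enriched regions in a list of Ino80 peaks from J1, a line of mouse embryonic stem cells. They were chosen by the width of the deposited peaks, as autosomal peaks of at least 10 kb, and numbered 605 of 12542 autosomal peaks, or 4.82%. The whole list held 12749 peaks, and none of the 207 peaks on chromosome X reached that width. The other 11937 autosomal peaks, from 400 to 9800 bp wide, served for comparison. Of these, the 3117 peaks of 5000 to 9800 bp were also used as the next widest.

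The peaks came from 1 chromatin immunoprecipitation library, in which formaldehyde-fixed, sonicated chromatin was pulled down with an antibody to Ino80 and the recovered DNA was sequenced. The J1 cells of this sample were kept in ESGRO medium and moved to M15 medium for the immunoprecipitation, and the labels give them no knockdown or other treatment. The series has 12 samples in 12 groups. The Ino80 input and the 10 libraries made after lentiviral hairpin treatment (non-targeting or against Ino80) were not analysed here. With 1 library there is no replicate error, and neighbouring peaks share that library, so no test between regions was made and no p-value is given. Intervals are 95% exact binomial ones (Clopper-Pearson for shares, order statistics for medians). They cover counting error only and treat peaks as independent, although neighbouring peaks were crowded.

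Ino80 is the ATPase of a large chromatin remodelling complex that slides nucleosomes, spaces them next to promoters and acts on nucleosomes carrying the histone variant H2A.Z. It is found at many active promoters and also takes part in DNA replication and repair. In embryonic stem cells, clusters of enhancers near genes of cell identity are known to bind coactivators over wide stretches. A width of 10 kb spans many nucleosomes. The list gives no signal inside a peak, so whether enrichment was continuous across a domain was not examined. All positions are in the mouse build mm9. Sequence and gene annotation of that build were not used here, so domains are named by position and the genes in or near them are not given.

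The domains ranged from 10 to 36.8 kb, with a median of 12600 bp and quartiles at 10800 and 15200 bp. Together they covered 8.29 Mb, which was 15.2% of the autosomal sequence under peaks. Most lay close to the threshold. There were 265 domains of 10 to below 12 kb (43.8%), 170 of 12 to below 15 kb (28.1%), 127 of 15 to below 20 kb (20.99%) and 43 of 20 kb or more (7.11%). Widths moved in steps of 200 bp, and 49 peaks stood at exactly 10000 bp against 37 at 9800 bp. The peaks of 9800 bp had a median gap to the nearest peak of 7.2 kb and a median of 8 other peaks within 250 kb. For those of 10000 bp the values were 5.8 kb and 8 peaks. The threshold therefore cut through a continuous distribution of widths.

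The widest domain lay on chromosome 10, from 79596401 to 79633200, in a megabase with 30 peaks, 5 of them domains. It had 19 other peaks within 250 kb of its midpoint, and these covered 110.8 kb. The second, of 34.8 kb on chromosome 4 (140825601 to 140860400), had 15 such neighbours covering 63.6 kb. Both were flanked within 1.2 kb by a peak of less than 4 kb, so a second, narrow peak was listed right beside each.

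The domain on chromosome 17 from 45727601 to 45759400 spanned 31.8 kb and lay 2.8 kb from a peak of 9.8 kb and 3.4 kb from the next peak on its other side. Its 16 neighbours covered 122.8 kb of the 500 kb around it, the most among the 10 widest. The domain of 27.0 kb on chromosome 7 from 148123801 to 148150800 had the most neighbours of the 10, at 21. These were domains inside dense stretches.

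Other very wide domains had fewer neighbours, though still more within 250 kb than the median of 5 for other peaks. The domain of 32.6 kb on chromosome 5 (123582001 to 123614600) had gaps of 88.8 and 178 kb to its neighbours. It had 8 other peaks within 250 kb and 27 within 1 Mb. The domain of 29.6 kb on chromosome 2 (91799401 to 91829000) was the only one in its megabase and had 7 neighbours within 250 kb. A second domain of chromosome 5, 27.2 kb wide (118883601 to 118910800), also had 7, but its nearest peak, 10.4 kb away, was itself a domain of 14.6 kb. Among the 10 widest domains the nearest gap thus ran from 1 to 88.8 kb, and the number of neighbours from 7 to 21.

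The remaining 3 of the 10 widest fell between these cases. The 31.8 kb domain near the start of the peak-bearing part of chromosome 7 (3191801 to 3223600) had 10 neighbours within 250 kb and the narrowest nearest peak of the 10, at 1.8 kb. On chromosome 18 a domain of 29.2 kb (65731601 to 65760800) was the only one among the 17 peaks of its megabase and lay 2.4 kb from a peak of 8.4 kb. On chromosome 11 a domain of 28.6 kb (96627201 to 96655800) had 11 neighbours within 250 kb and 52 within 1 Mb. Its flanking gaps of 51.8 and 28.4 kb were wide for so full a region, since the widest domain of chromosome 10 had 56 peaks within 1 Mb and gaps of 14.2 and 1 kb.

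Every autosome carried broad domains, and their numbers differed widely. Chromosome 7 held 63, chromosome 11 held 62, chromosome 4 held 51 and chromosome 2 held 50. Chromosome 13 held 11, chromosome 19 held 12 and chromosome 16 held 14. Chromosomes 4, 7, 11 and 17, picked after their values were seen, carried 217 domains. That was 35.9% of all domains on 21.4% of the autosomal span and with 28.1% of the peaks.

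Per length, measured from the first to the last peak of each chromosome, there were 25.3 domains per 100 Mb over all autosomes. Chromosome 11 had 52.4 per 100 Mb, chromosome 17 had 44.5 and chromosome 7 had 42.2. The lowest were chromosome 13 with 9.45, chromosome 1 with 13.4 and chromosome 12 with 13.6. Set against the number expected from its share of the span, chromosome 11 had 2.07 times as many domains (interval 1.61 to 2.62) and chromosome 7 had 1.67 times (1.30 to 2.11). Against its share of all peaks chromosome 11 was at 1.24 (0.959 to 1.56) and chromosome 7 at 1.42 (1.102 to 1.79). The high number on chromosome 11 thus went along with its high number of peaks of any width.

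The share of a chromosome's peaks that were broad takes the number of peaks into account. It was highest on chromosome 7, at 6.84% (5.30 to 8.67%), followed by chromosome 17 at 6.18% (4.47 to 8.30%) and chromosome 11 at 5.97% (4.61 to 7.58%). It was lowest on chromosome 13, at 2.20% (1.101 to 3.89%), and chromosome 19, at 2.70% (1.40 to 4.67%). Only the intervals of chromosomes 7, 13 and 19 left out the 4.82% of all autosomal peaks, and crowding makes the true uncertainty larger than these intervals. Chromosome 19 combined one of the lowest shares with 7.65 peaks per Mb, which only chromosome 11, at 8.78, surpassed.

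**Figure D1:**
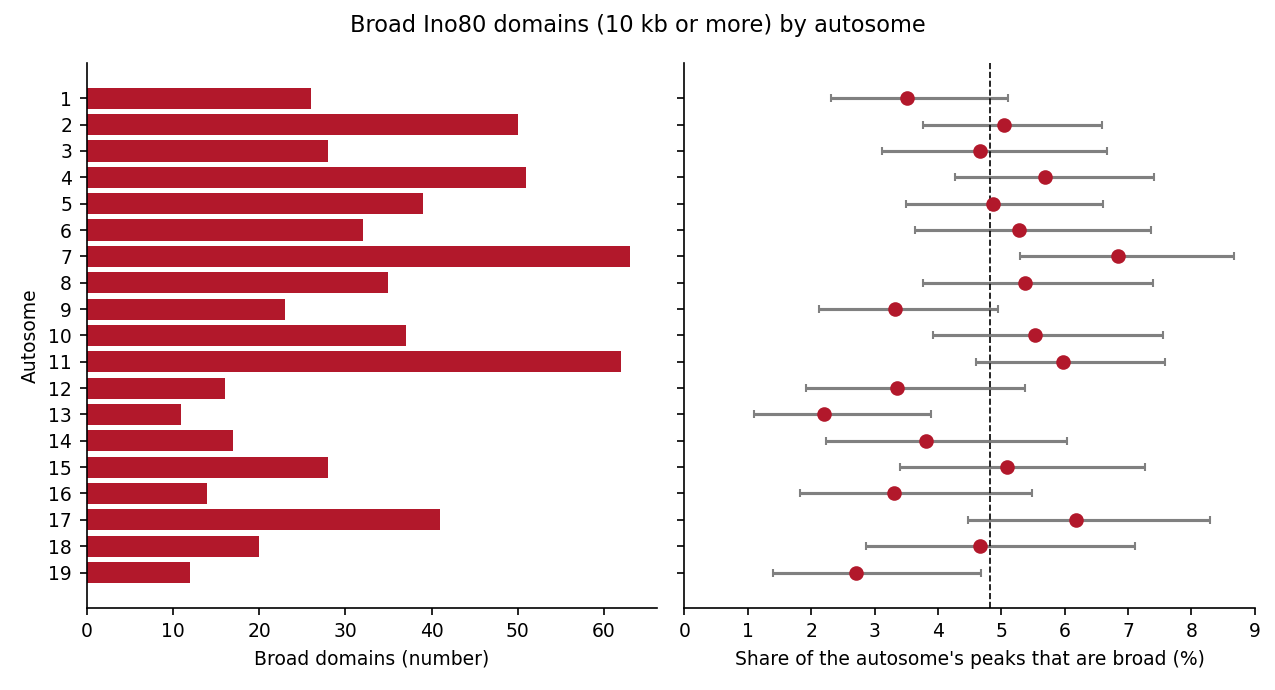
Left, number of broad domains on each of the 19 autosomes. Right, the percentage of each autosome's peaks that are broad, with 95% Clopper-Pearson intervals as bars and the share over all autosomes (4.82%) as a dashed line. Chromosome 7 lies above the line and chromosomes 13 and 19 below it with their whole interval.

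Across the 19 autosomes, the share of broad peaks and the number of peaks per Mb had a Pearson correlation of 0.40 and a Spearman correlation of 0.46. Without chromosomes 11 and 19, left out because they lay farthest from the median peak density, they were 0.66 and 0.60 over 17 autosomes. Chromosome 19 made most of that change. Without it alone the values were 0.64 and 0.66, and without chromosome 11 alone 0.31 and 0.37, both omissions chosen after the shares were seen. All points come from the same library and caller, and each share contains the peaks that also enter the density. Relative to the protein-coding genes that the GRCm38.p6 table assigns to each chromosome, there were 29.3 domains per 1000 genes over the autosomes. This ranged from 13.3 on chromosome 13 and 17.02 on chromosome 19 to 38.7 on chromosome 17 and 39.1 on chromosome 18. Chromosome 7, which had the most domains, stood at 31.03 domains per 1000 genes, near the value for all autosomes.

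The widest domain of an autosome also varied, from 15 kb on chromosome 13 (55623401 to 55638400) to 36.8 kb on chromosome 10. Chromosomes 3 and 9 had no domain above 17.4 and 17.2 kb. On chromosome 16, with 14 domains, the widest measured 25 kb (22396401 to 22421400), and on chromosome 19, with 12, it measured 25.2 kb (23205001 to 23230200). An autosome with few domains could thus still carry a very wide one. The median width of the domains of an autosome lay between 11400 bp on chromosome 13 and 14800 bp on chromosomes 14 and 19.

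Along the chromosomes, the share of broad peaks was larger towards the high-coordinate end. Each autosomal span was cut into 5 equal parts from its first to its last peak. The first part held 88 domains among 2293 peaks, or 3.84% (3.09 to 4.71%), and the last 186 among 3275, or 5.68% (4.91 to 6.53%). The 3 parts between had 4.01, 5.01 and 5.15%. Mouse chromosomes have their centromere at the low-coordinate end. The intervals of the first and last parts did not overlap, while each part overlapped with the one beside it, and the number of peaks of any width was also highest in the last part.

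Broad domains lay close to other peaks. The median gap from a domain to the nearest peak, measured from edge to edge, was 5.4 kb (interval 4.6 to 6.2 kb), against 20.4 kb (19.6 to 21.4 kb) for other peaks. Among peaks of 5000 to 9800 bp it was 10.6 kb (9.8 to 11.4 kb). A gap from edge to edge shrinks as a peak widens between fixed neighbours, so it is not independent of the width that chose the domains. Whether the joining of windows by the caller adds to the difference was not tested. From midpoint to midpoint, the domains' median of 15.8 kb (15 to 16.8 kb) was below the 24.7 kb of other peaks (23.9 to 25.5 kb). It overlapped with the 16.7 kb (16 to 17.4 kb) of the next widest peaks.

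A peak less than 5 kb away was present for 288 domains, or 47.6% (43.6 to 51.7%), compared with 22.7% of other peaks (22.0 to 23.5%) and 33.5% of the next widest (31.8 to 35.2%). The smallest gap in the list was 1 kb. It was found beside 62 domains, 10.2% (7.95 to 12.9%), and beside 4.52% of other peaks (4.15 to 4.90%). For the next widest the share was 6.71% (5.85 to 7.64%). For other peaks in the same 1 Mb bins as a domain it was 7.30% (6.57 to 8.09%), which overlaps with the interval of the domains. Gaps under 20 kb on both sides occurred for 211 domains, 34.9% (31.1 to 38.8%), and for 15.1% of other peaks (14.4 to 15.7%). Closer values were found for the next widest peaks, at 23.2% (21.7 to 24.7%), and for other peaks of the same 1 Mb bins, at 25.3% (24.1 to 26.6%). On the farther side the median gap was 33.0 kb for domains (28.2 to 39 kb) and 105.4 kb for other peaks, with 59 kb for the next widest and 50.2 kb in the same bins. On both flanks the shorter gaps were those of the domains.

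**Figure D2:**
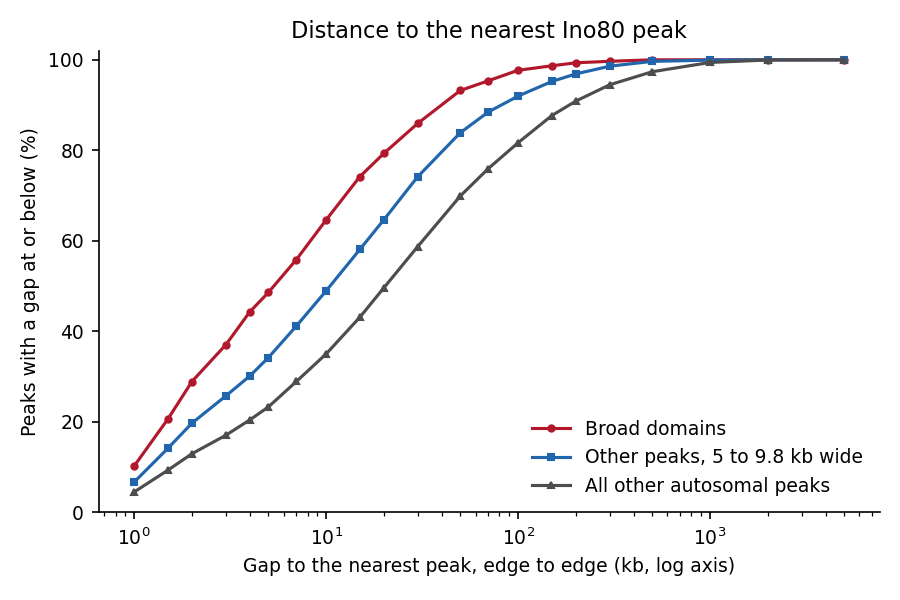
Percentage of peaks whose nearest neighbour lies at or below a given gap, edge to edge, on a log axis in kb, for broad domains (circles), other peaks of 5 to 9.8 kb (squares) and all other autosomal peaks (triangles). The curve of the domains lies above both others, with 79.3% of domains but 49.6% of other peaks at 20 kb or less.

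On all 19 autosomes the median nearest gap was shorter for domains than for other peaks. The domains' medians ran from 1.8 kb on chromosome 14 to 10 kb on chromosomes 5 and 13, and those of other peaks from 12.4 kb on chromosome 17 to 32.8 kb on chromosome 13. The order among autosomes differed between the 2 sets. Chromosome 12, for example, had gaps of 2.3 kb for domains and 32.7 kb for other peaks, while chromosome 7 had 7.8 and 15.4 kb.

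The neighbourhood of a domain was also fuller. Within 250 kb of the midpoint, domains had a median of 9 other peaks (interval 9 to 10), other peaks had 5 (5 to 6) and the next widest had 7 (7 to 8). The neighbours of a domain covered a median of 49.4 kb of that window (46.6 to 52.6 kb), against 22.8 kb (22.2 to 23.6 kb) around other peaks. Around the next widest this was 34.8 kb (33 to 36.5 kb). Within 1 Mb the medians were 24 peaks for domains (22 to 26) and 16 for other peaks (16 to 16). For the next widest the median was 21 (20 to 22), which meets the interval of the domains. For other peaks of the same 1 Mb bins it was 29 (28 to 30). Counted from the edges, which leaves out a peak's own width, domains had a median of 5 peaks within 100 kb and other peaks 3. The next widest had 4 and other peaks of the same bins 5. The difference between domains and all other peaks was in the same direction on all 19 autosomes for the 250 kb window.

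The surplus was largest next to the domain and declined with distance. In the first 25 kb beyond either edge, domains had 3.82 peaks per 100 kb and other peaks 1.98, a ratio of 1.93. The ratio was 1.60 at 25 to 50 kb, 1.45 at 100 to 250 kb, 1.28 at 500 to 1000 kb and 1.14 at 2000 to 5000 kb. Against peaks of 5000 to 9800 bp it was 1.41 in the first 25 kb, 1.12 at 250 to 500 kb and 1.03 at 1000 to 2000 kb. Domains thus resembled the next widest peaks at the scale of megabases and differed from them most within 25 kb.

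Neighbour numbers rose with width over the whole list, without a step at 10 kb. The median within 250 kb was 1 peak for peaks under 1 kb, 5 for those of 3 to below 4 kb, and 8 for both the 6 to 8 and the 8 to 10 kb classes. It was 9 for domains of 10 to 12 and of 12 to 15 kb, 10 for those of 15 to 20 kb and 13 for the 43 domains of 20 kb or more, with quartiles at 8 and 17. The median nearest gap showed no steady fall among the domains. It was 5.4 kb at 10 to below 12 kb, 6.4 kb at 12 to below 15 kb, 4.8 kb at 15 to below 20 kb and 3.6 kb for the 43 widest.

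**Figure D3:**
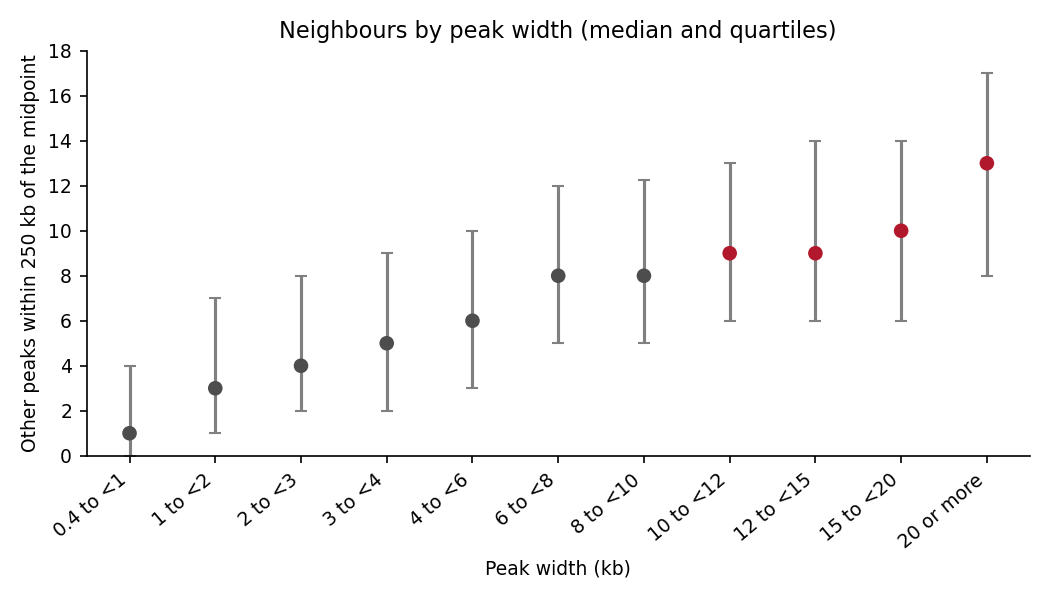
Median number of other peaks within 250 kb of the midpoint for peaks grouped by width in kb. Points are medians, bars the quartiles, and the 4 classes of broad domains are in red. The median climbs from 1 in the narrowest class to 13 in the widest.

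Other peaks of the same megabases had neighbourhoods that were at least as full. When domains were set beside the 4587 other peaks of the same 1 Mb bins, no surplus within 250 kb remained. The medians were 9 (9 to 10) for domains and 10 (10 to 10) for the others, with means of 10.04 and 10.05. The sequence covered by neighbours was 49.4 and 51.4 kb. Within 1 Mb the domains had fewer neighbours, at 24 (22 to 26) against 29 (28 to 30). The gap to the nearest peak was still shorter for domains in those bins, at 5.4 against 9.8 kb (9.4 to 10.4 kb), but the midpoint distance was not, at 15.8 against 14.8 kb (14.4 to 15.4 kb). Bins with more peaks give more of these comparison peaks, so they weigh dense bins more heavily than the domains do.

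The more peaks a megabase held, the larger the part of them that was broad. In bins with 1 or 2 peaks, 4 of 882 peaks were domains, or 0.454% (0.124 to 1.16%). The share was 3.83% (3.21 to 4.54%) in bins with 6 to 10 peaks, 6.44% (5.23 to 7.83%) with 16 to 20 and 10.9% (8.26 to 13.99%) with 31 to 44. Each of the 7 classes of bins had a larger share than the class below it.

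Inside each of these classes, the median nearest gap was shorter for domains than for other peaks. In bins with 3 to 5 peaks it was 6.8 kb for 42 domains and 57.2 kb for the others. In bins with 31 to 44 peaks it was 3.8 and 5.6 kb. For the next widest peaks it was 28.8 and 4.8 kb in the same classes. Midpoint distances were shorter for domains than for all other peaks in bins with up to 20 peaks. They were longer in the 2 densest classes, at 14.6 against 13.1 kb and 14.7 against 10.7 kb. The domain's own width sets a lower limit on this distance.

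**Figure D4:**
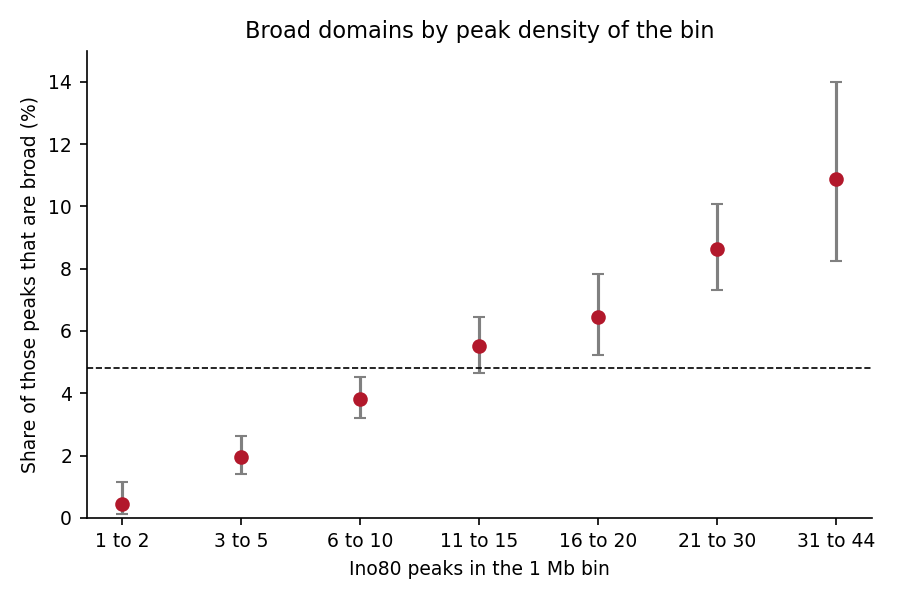
Percentage of peaks that are broad in 1 Mb bins grouped by their number of peaks, with 95% Clopper-Pearson intervals as bars and the share over all autosomal peaks (4.82%) as a dashed line. The share climbs from 0.454% in the emptiest bins to 10.9% in the fullest.

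The peaks nearest to broad domains were wider than those nearest to other peaks, and less so when set beside similar peaks. The peak nearest to a domain had a median width of 4.8 kb (4.4 to 5.0 kb), against 3.6 kb (3.6 to 3.8 kb) for the peak nearest to any other. This median was 4.2 kb (4.0 to 4.2 kb) for peaks of 5000 to 9800 bp and 4.4 kb (4.4 to 4.6 kb) for other peaks of the same 1 Mb bins, the last overlapping with the domains. For 65 domains, 10.7% (8.39 to 13.5%), the nearest peak was itself a domain, compared with 5.04% of other peaks (4.66 to 5.45%). Among peaks of 5000 to 9800 bp it was a domain for 7.44% (6.55 to 8.42%). Among other peaks of the same 1 Mb bins it was a domain for 12.7% (11.8 to 13.7%), at least as often as for domains. Each of those bins was chosen for holding a domain, which raises that share. Nearest peaks under 2 kb wide were found for 5.12% of domains (3.51 to 7.19%) and 13.3% of other peaks (12.7 to 13.9%), and for 9.66% of the next widest and 9.22% of other peaks in the same bins.

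Counted along the list, the next peak on either side of a domain was a domain in 10.3% of 1209 places, against 4.55% of 23837 places beside other peaks. At 2 steps the values were 7.96 and 4.66%, at 10 steps 7.48 and 4.74%, and at 20 steps 4.53 and 4.92%. The 2 shares differed up to 10 peaks away and were close beyond, with 5.39 and 4.94% at 50 steps. Each pair of domains was counted from both ends. Domains lay in fuller bins, where a larger share of peaks was broad, and no share for peaks of equally full bins was computed.

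Many domains shared a megabase with another. They lay in 370 of the 1980 autosomal 1 Mb bins that had any peak, or 18.7%. Of the 605 domains, 374 shared their bin with another, which is 61.8% (57.8 to 65.7%). Of the 11937 other peaks, 4587 lay in a bin with a domain. The 57 bins with 3 or more domains made up 2.88% of bins with a peak and held 210 domains, or 34.7%. The 2.88% is a share of bins and not of peaks, and domains lay in fuller bins. A domain's bin held a median of 15 peaks and the bin of another peak 10. The distance from a domain to the next nearest domain had a median of 166 kb (137 to 218 kb), and from any other peak to its nearest domain the median was 932 kb (886 to 984 kb). Another domain lay within 100 kb for 242 domains, or 40%, while 146 (24.1%) had none within 1 Mb. Of the other peaks, 2114 (17.7%) had a domain within 100 kb. This share was not computed for the next widest peaks or for other peaks of the same bins.

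The bin with the most domains lay on chromosome 7, from 52 to 53 Mb. Of its 40 peaks 10 were domains, and these covered 152.8 of the 288.2 kb under peaks. Their widths ran from 10.4 to 26.4 kb, the widest from 52953801 to 52980200, and 3 lay close together at the start of the group (52066001 to 52077400, 52103201 to 52119600 and 52144401 to 52160000). A second group of 3, of 19.6, 14 and 12.6 kb, lay between 52677601 and 52753600. The gaps from these 10 domains to their nearest peaks ranged from 1 to 25.8 kb, the longest that of the first domain.

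On chromosome 10, the bin from 80 to 81 Mb held 9 domains among 44 peaks, and the bin before it, from 79 to 80 Mb, held 5 among 30, the widest of all included. The 9 domains covered 123.4 of 298.4 kb and were more even in width, from 10.8 to 19.4 kb. The widest of them, from 80834801 to 80854200, was followed by one of 17.4 kb from 80867201 to 80884600. From first to last, the domains of these bins extended over 927.8 and 747.4 kb.

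**Figure D5:**
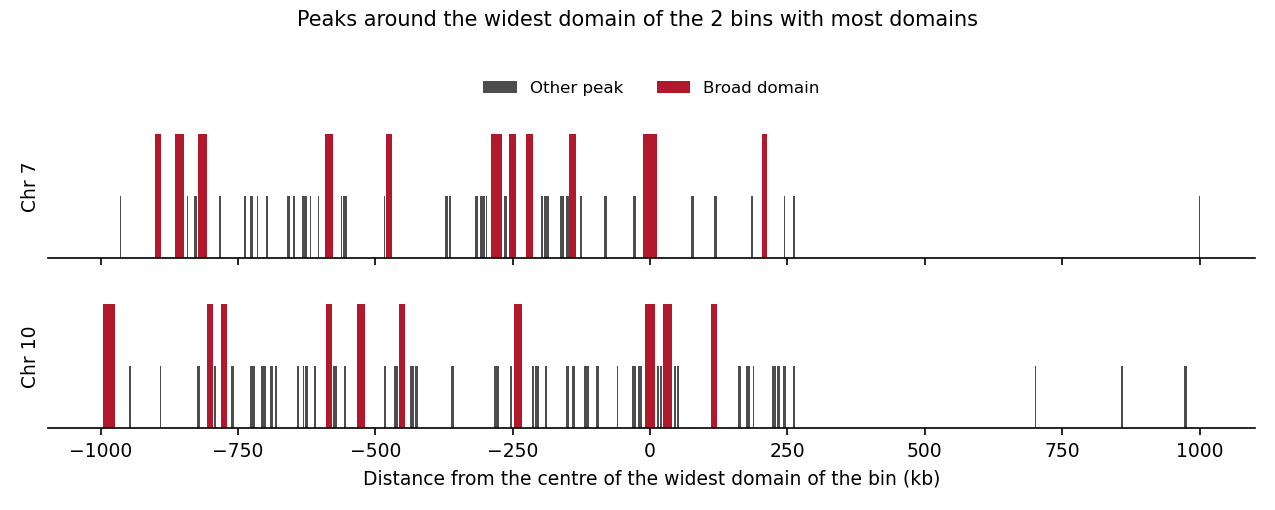
Peaks within 1000 kb of the centre of the widest domain in the 2 bins with the most domains, on chromosomes 7 (top) and 10 (bottom), as distance in kb. Tall red bars are broad domains and short grey bars other peaks, drawn to scale in width. Both groups of domains lie mainly on the low-coordinate side, and few peaks follow beyond 263.5 kb on the other side. The centring domain lies towards the high-coordinate end of either bin, so most of each bin falls on the low-coordinate side.

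Chromosome 17 had the tightest of the large groups apart from one on chromosome 11. From 45 to 46 Mb, 6 of 17 peaks were domains, or 35.3%, all between 45589001 and 45759400, a stretch of 170.4 kb of which they covered 94.8 kb. Chromosome 7 had another 6 domains among 35 peaks at 134 to 135 Mb, but spread over 748.6 kb. Chromosome 6 had 5 domains among only 14 peaks at 113 to 114 Mb, the highest share of these 8 bins at 35.7%. The 5 domains on chromosome 11 at 107 to 108 Mb lay within 140.6 kb, and the 5 at 117 to 118 Mb within 678 kb. These 8 bins, all those with 5 or more domains, held 51 domains.

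Most domains had no other domain directly beside them. Even so, the next peak was a domain in 10.3% of places beside domains and in 4.55% of places beside other peaks. In the order of the list, 488 domains stood singly between narrower peaks or chromosome ends, 98 formed 49 pairs, 5 runs had 3 domains and 1 run had 4. The run of 4 lay on chromosome 11 from 107291201 to 107348000. Its domains of 13.6, 10.8, 10.8 and 10.4 kb were separated by gaps of 1.2, 6.8 and 3.2 kb and filled 45.6 of 56.8 kb. The most filled run of 3 was also on chromosome 11, from 69464201 to 69525000, with widths of 16.2, 27.0 and 14.4 kb that filled 57.6 of 60.8 kb. A run on chromosome 6, from 64944601 to 65001200, had widths of 15.6, 19.4 and 11.8 kb with gaps of 1 and 8.8 kb.

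The other runs of 3 were looser. On chromosome 3 a domain of 10 kb (34547001 to 34557000) and one of 12.8 kb (34558201 to 34571000) lay 1.2 kb apart, and the third, of 13.6 kb (34652801 to 34666400), followed after 81.8 kb without a peak. On chromosome 6 the run from 113546601 to 113640400 had domains of 10.2, 10.4 and 10.6 kb, all near the threshold. On chromosome 1 the first domain was 392 kb from the second, so this run is a neighbourhood in list order only.

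When autosomal peaks less than 5000 bp apart were joined, 288 domains were joined to at least one neighbour and 317 stayed as they were. The joined list had 1283 regions of at least 10 kb, of which 564 contained a domain and 719 were built from narrower peaks alone. The longest joined region, on chromosome 15 from 102032001 to 102113800, measured 81.8 kb. It consisted of 9 peaks, only 1 of them a domain. The third longest, on chromosome 17 from 45698801 to 45770600, had 4 peaks, 2 of them domains, and the peaks filled 64.4 of its 71.8 kb. Which regions count as broad therefore depended on how far apart enriched stretches may lie and still be joined.

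Isolated domains were rare. A gap of at least 100 kb on both sides was found for 14 domains, 2.31% (1.27 to 3.85%), compared with 18.3% of other peaks (17.6 to 19.04%) and 8.05% of the next widest (7.12 to 9.06%). The 14 had a median width of 13.2 kb and reached 17.4 kb. The most isolated domain was also the widest of chromosome 3, from 130803801 to 130821200, with 369 and 793 kb to its neighbours. On chromosome 7, a domain of 14.6 kb (146037601 to 146052200) was 342 kb from its nearest peak, which was only 0.8 kb wide, and on chromosome 4 one of 10.6 kb (150513801 to 150524400) was 223 kb away. The domains on chromosomes 3 and 7 were the only 2 of 605 with no other peak within 250 kb, a share of 0.331% (0.0401 to 1.19%). Of other peaks 842 (7.05%) had none, of the next widest 2.25% and of other peaks in the same 1 Mb bins 0.828%, which lies within the interval of the domains. Those bins were chosen for holding a domain, so each such peak has another peak in its bin, which can lower that share.

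Long stretches of autosome had peaks but no broad domain. The longest between neighbouring domains ran over 53.2 Mb of chromosome 12, from 12954401 to 66171400, and held 134 narrower peaks. Next came 42.8 Mb of chromosome 6 (65752801 to 108566200) with 121 narrower peaks and 34.2 Mb of chromosome 13 (63674601 to 97832600) with 94. On chromosome 6 this stretch lay between 2 parts of the chromosome that each carried a run of 3 domains. All 3 stretches had fewer peaks per Mb than chromosomes 12, 6 and 13 as a whole, at 4.06, 4.16 and 4.30. In bins with 3 to 5 peaks 1.96% of peaks were broad (1.42 to 2.64%). The stretches were chosen for holding no domain, and why they hold none was not tested.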

How the data were processed

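The authors deposited 1 list of Ino80 peaks: a name, chromosome, start, end and constant strand sign, with no count, score or p-value, so the depth behind a peak is unknown. Tools named in the submitters' processing notes, without roles, are SICER 1.1, Bowtie 0.12.8, CASAVA 1.7 and bedtools, with hg19 and mm9 as builds. SICER joins enriched windows into broad islands. Which window, gap, threshold and control were used is not given here. The list bears the title of the Ino80 sample and was assigned to it, and its positions were taken as mm9. All starts were multiples of 200 and all ends 1 below one, so 1 bp was added to both in print.

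Width was end minus start plus 1. Gaps, neighbours, 1 Mb bins of midpoints counted from 0 and runs were computed on autosomal peaks (Python 3.11.15, pandas 2.3.3, scipy 1.17.1), after checking the measures on a constructed list. Regions named are the 10 widest domains, the widest of an autosome, the 5 bins with most domains (3 more were added after their values were seen, to complete the ties), all runs of 3 or more and the 3 most isolated domains. Joined regions and domain-free stretches were named after their values were seen. Members and lists were chosen with earlier results of these data known. Planned descriptions of genes, gene lists, base composition and sequence need mm9 references and were not made. Gene numbers per chromosome came from the GRCm38.p6 table, and no position was converted.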

Additional observations from a re-analysis of the deposited data

How the results depend on the processing

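Other widths moved what depends on the number of domains. At 8000, 15000 and 20000 bp there were 1193, 170 and 43 domains with median widths of 10000, 17100 and 24400 bp, and 76.9, 35.3 and 9.30% shared a 1 Mb bin with another domain (61.8% as reported). At 20000 bp chromosomes 7 and 11 had 2.61 (1.09 to 4.93) and 3.29 (1.38 to 6.21) times the domains expected by span. The reported 1.67 and 2.07 lie within these intervals. At that width the nearest gap was 0.186 (0.103 to 0.474) of that of other peaks, with 0.265 as reported. The surplus within 250 kb was 7 peaks (4 to 10), with 4 as reported. Joining peaks less than 5000 bp apart gave 1283 domains of median width 14400 bp, a gap ratio of 0.455, a surplus of 3 peaks and 74.2% sharing a bin. By share of peaks chromosome 11 was at 1.24. The gap ratio was 0.640 between midpoints and 0.509 against peaks of 5000 to 9800 bp. The surplus was 3.5 as the median of within-autosome differences and 2 within 100 kb of the edges. Against other peaks of the same bins it was -1 (interval -1 to 0), and the cause of this change was not tested. Bins of 0.5 and 2 Mb gave 51.4 and 73.7% sharing a bin. The edge-based count and leaving out the 8 bins with 5 or more domains were chosen after seeing the data. Leaving out those bins gave values within the reported intervals (gap ratio 0.267, surplus 4, 58.3% sharing). Of the 42 alternative values 16 stayed within the interval of the reported value, or within 1.5 times for a number of domains. Chromosome lengths and start sites of mm9 were not used, so those alternatives were not run. No paired analysis was possible because no group holds more than 1 sample.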
